A study of Mus musculus with 8 samples.

Results

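The 10 genes followed here encode the mechanotransduction machinery and the tip link of hair cells, the sensory cells of the cochlea. They were chosen by symbol as *Tmc1*, *Tmc2*, *Tmie*, *Lhfpl5*, *Cib2*, *Cdh23*, *Pcdh15*, *Ush1c*, *Ush1g* and *Myo7a*, and their rows were found through the Ensembl identifiers of the NCBIM37 (mm9) annotation. 11 of the 36536 genes in the count files carry one of these symbols. The eleventh is a *Pcdh15* pseudogene lying inside the *Pcdh15* gene, which had 0 counts in all 8 libraries, so 10 genes remained. Reads in the 468 bases that it shares with *Pcdh15* may be missing from the *Pcdh15* counts. All 10 passed the filter on low counts in every comparison.

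A hair cell carries a bundle of stereocilia on its apical surface, and deflection of the bundle opens cation channels near the stereocilia tips. The channels are pulled by the tip link, a filament made of cadherin 23 (*Cdh23*) above and protocadherin 15 (*Pcdh15*) below. TMC1 and TMC2 form the channel pore, with TMIE, LHFPL5 and CIB2 as partners at the lower end of the link, while harmonin (*Ush1c*), SANS (*Ush1g*) and myosin VIIa (*Myo7a*) anchor its upper end. In the cochlea these genes are known chiefly as hair cell genes and as deafness genes, and the question here was how much of their RNA is carried by cells sorted as supporting cells.

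RNA-seq counts came from cells of freshly dissected cochleas of *Lfng-GFP* BAC transgenic mice (B6;FVB-Tg(Lfng-EGFP)HM340Gsat/Mmucd) at postnatal days 1 (P1) and 6 (P6), with no culture and no treatment. Cells were separated by FACS into GFP+ cells, of which only the brightest were kept, and GFP- cells, and 2 replicate libraries were made of each of the 4 groups. Mice of every group carried the transgene, whose *Lfng* regulatory sequences drive GFP in Deiters' and outer pillar cells and in the border and inner phalangeal cells around the inner hair cells. Cells of low fluorescence were not collected, and the study regards them as probable inner pillar and inner hair cells, so that inner hair cells may be missing in part from both fractions. The GFP- pool holds hair cells without GFP together with all other GFP- cochlear cells. A GFP+ to GFP- ratio therefore compares a sorted fraction with a mixture and is not a measure of purity, and in these bulk libraries fewer cells of a type and less RNA per cell cannot be told apart. The sources do not say that the replicates came from separate litters, so p-values measure only the spread between the libraries, which may be technical. Gene counts per library ranged from 17769024 to 67695039. *Lfng*, the gene behind the reporter, had 2460 and 2821 counts per 1000000 gene counts (CPM) in P1 GFP+ cells and 17.2 and 32.5 CPM in P1 GFP- cells, and 3755 and 2365 against 45.8 and 28.5 CPM at P6.

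Promoter sequences of RefSeq (build GRCm38.p6, 250 bases before to 50 after a start) were matched by symbol to 8 of the 10 genes, in 9 windows, while *Tmc2* and *Ush1g* were not matched. Genes were counted on another build, NCBIM37. A window may therefore lie at a start inside the counted gene, as is possible for *Pcdh15*, and this was not checked. The windows of 3 members are printed 5' to 3' because *Lhfpl5* and *Pcdh15* had similar patterns across the libraries and *Tmc1* had the pattern least like the members' mean profile. Capitals mark CAGCTG, one of the 2 E-box sequences searched, which reads the same on both strands, and the other was CAGATG on either strand.
Lhfpl5 (chr17:28575469-28575768, plus strand): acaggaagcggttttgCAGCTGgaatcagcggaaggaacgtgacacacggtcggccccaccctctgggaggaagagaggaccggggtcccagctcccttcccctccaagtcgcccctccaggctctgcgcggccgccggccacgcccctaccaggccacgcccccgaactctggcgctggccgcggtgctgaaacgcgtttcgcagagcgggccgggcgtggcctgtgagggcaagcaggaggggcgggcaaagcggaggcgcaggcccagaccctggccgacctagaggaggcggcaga
Pcdh15 (chr10:73821617-73821916, plus strand): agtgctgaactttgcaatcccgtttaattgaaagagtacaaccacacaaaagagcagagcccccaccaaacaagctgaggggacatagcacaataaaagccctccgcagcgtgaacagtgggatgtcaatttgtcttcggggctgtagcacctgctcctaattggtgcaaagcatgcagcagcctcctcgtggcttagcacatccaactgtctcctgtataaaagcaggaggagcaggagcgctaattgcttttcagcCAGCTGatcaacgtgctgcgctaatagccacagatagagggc
Tmc1 (chr19:20954153-20954452, minus strand): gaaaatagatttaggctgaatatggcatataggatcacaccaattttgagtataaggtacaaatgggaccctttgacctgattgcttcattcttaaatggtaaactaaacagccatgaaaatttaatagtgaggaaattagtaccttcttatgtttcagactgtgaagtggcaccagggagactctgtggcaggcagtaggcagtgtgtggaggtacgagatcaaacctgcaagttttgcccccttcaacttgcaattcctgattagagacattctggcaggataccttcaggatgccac
CAGCTG was found in 5 of the 9 windows, namely those of *Lhfpl5*, *Tmie* and *Pcdh15* and both of *Myo7a*, and CAGATG in 0. Of all 32851 promoters of the same length 16.3% held CAGCTG and 17.2% held CAGATG. The windows of *Cib2*, *Cdh23* and *Ush1c* had neither, although *Cib2* was the member most like *Lhfpl5* across the libraries. A relation between these sequences and the patterns was not tested. The *Tmc1* window, at 42% G and C, also had neither, whereas the *Lhfpl5* window held 70.7% G and C. These matches describe letters in the windows and were not tested as binding sites.

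*Ush1c* was far more abundant than the other members in GFP+ cells. Levels were also compared per length, as CPM per kilobase of exon. The length joined all annotated exons of a gene, 21940 bases for *Pcdh15* and 16939 for *Cdh23*. Orders and ratios between genes depend on this choice. On this scale *Ush1c* had 261 ± 31.1 (SD, n = 2) in the GFP+ libraries of P1 and 275 ± 4.16 in those of P6. *Cib2* came next in this order, at 34.6 ± 5.10 and 26.7 ± 8.11, followed by *Lhfpl5*, at 14.1 ± 2.61 and 8.10 ± 1.99. In P1 GFP+ cells the order went on through *Tmie*, *Myo7a*, *Tmc2*, *Cdh23*, *Pcdh15* and *Tmc1* to *Ush1g*, where replicates of *Lhfpl5* and *Tmie* overlapped, as did those of *Tmc2* and *Cdh23*. In P6 GFP+ cells *Tmc1* had moved to the fourth place and *Tmc2* to the ninth, and replicates overlapped between *Tmc1* and *Tmie*, *Myo7a* and *Pcdh15*, and *Tmc2* and *Ush1g*. In GFP- cells *Ush1c* and *Cib2* led with a smaller distance, with overlapping replicates at P1 and at 12.9 ± 2.41 and 7.63 ± 0.768 on the same scale at P6. *Ush1g* was lowest in all 4 groups, from 0.325 in P1 GFP+ to 0.0585 in P6 GFP- cells.

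The sum over the 10 members was 1135 and 1332 CPM in P1 GFP+ cells, 119 and 157 CPM in P1 GFP- cells, 1179 and 1166 CPM in P6 GFP+ cells and 88.0 and 104 CPM in P6 GFP- cells. *Ush1c* supplied 77.1% and 77.8% of the members' counts in P1 GFP+ cells and 86.4% and 85.6% in P6 GFP+ cells, but 20.6% and 33.0% in P1 GFP- cells. Without *Ush1c* the sum was 260 and 296 CPM in P1 GFP+ against 94.6 and 105 CPM in P1 GFP- cells, and 160 and 168 against 47.0 and 50.7 CPM at P6. At both ages the 9 remaining members together were thus higher in each GFP+ library than in any GFP- library. The log2 ratio of GFP+ to GFP- sums was 3.17 at P1 and 3.61 at P6 with *Ush1c*, and 1.48 and 1.75 without it.

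**Figure D1:**
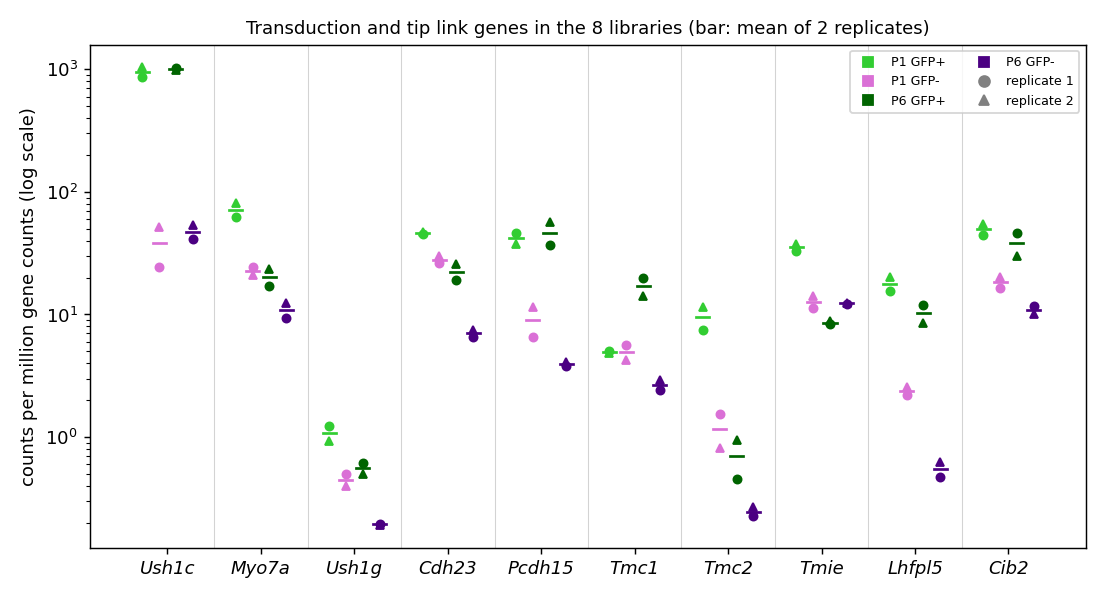
CPM of the 10 members (log axis) in each of the 8 libraries; circles and triangles are replicates 1 and 2, and short bars the mean of the 2. *Ush1c* stood at 875 to 1036 CPM in the GFP+ libraries of both ages, while *Tmc1* and *Tmc2* changed places between P1 and P6 in GFP+ cells.

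The first comparison asked which members differed between GFP+ and GFP- cells at P1. Of the 10 members 8 were higher in GFP+ cells and 0 were lower at an adjusted p below 0.01 in edgeR's quasi-likelihood test, against 16.6% higher and 20.7% lower among all 18682 genes tested. No member was lower at an unadjusted p below 0.05 (0 of 10) or by DESeq2 (0 of 10). Among all 18682 genes 5718 and 4291 were lower by these measures. The members' median log2 fold change was 1.67, beside 0.01 over all genes. Of the 8 members 4, *Ush1c*, *Tmc2*, *Lhfpl5* and *Pcdh15*, also exceeded a fold change of 4, the study's own criterion, which 6.46% of genes met in this direction.

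Among the channel genes, *Tmc2* (NCBIM37 chr2:130020930-130090181, plus strand), which encodes the pore subunit that precedes TMC1 in development, had 7.48 and 11.5 CPM in P1 GFP+ cells and 1.53 and 0.808 CPM in P1 GFP- cells. The groups did not overlap, and *Tmc2* was 8.86-fold higher in GFP+ cells (log2 3.15, SE 0.38, adjusted p = 0.00101). *Tmc1* (chr19:20857948-21028692, minus strand), the pore subunit of mature cochlear hair cells, had 5.0 and 4.82 CPM in GFP+ and 5.59 and 4.26 CPM in GFP- cells. The *Tmc1* values interleaved, and the log2 difference of 0.10 had a 95% interval from -0.45 to 0.66 (adjusted p = 0.724). Its sign turned when library totals replaced TMM scaling, a change that moved the median gene by -0.10 on the log2 scale. *Lhfpl5* (chr17:28712663-28720538, plus strand), which encodes a tetraspan protein joining PCDH15 to the channel, had 15.4 and 20.0 CPM in GFP+ cells and 2.19 and 2.54 CPM in GFP- cells. It was 7.99-fold higher in GFP+ cells (log2 3.00, SE 0.20, adjusted p = 9.28e-05), with the lowest adjusted p of the 10. *Tmie* (chr9:110768215-110782617, minus strand), encoding a transmembrane channel subunit, had 33.0 and 37.4 against 11.2 and 14.1 CPM, and *Cib2* (chr9:54392601-54408025, minus strand), encoding a calcium-binding partner of the TMC proteins, had 44.4 and 54.8 against 16.5 and 20.1 CPM. Both were higher in both GFP+ libraries than in either GFP- library, with log2 fold changes of 1.57 (SE 0.15) and 1.54 (SE 0.14). *Tmie* shares 8.71% of its exon bases with *Als2cl* and *Cib2* shares 15.8% with *Sh2d7*, each on the opposite strand. Since the library kit does not mark strand, reads in those stretches cannot be told apart from those of the partner unless the counting left them out.

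Both tip link cadherins were higher in GFP+ cells at P1, by different amounts. *Pcdh15* (chr10:72562090-74112482, plus strand) had 46.0 and 37.9 CPM in GFP+ and 6.57 and 11.6 CPM in GFP- cells, a 4.96-fold difference (log2 2.31, SE 0.28). *Cdh23* (chr10:59765496-60159238, minus strand) had 45.4 and 47.2 CPM in GFP+ and 26.1 and 30.0 CPM in GFP- cells, and its difference of 1.77-fold was the smallest of the 8 (log2 0.83, SE 0.11, adjusted p = 0.0012). *Cdh23* no longer passed edgeR's test without P1 GFP+ replicate 1 or without replicate 2, with the log2 difference at 0.84 and 0.83. Both fits left a lone library in the group and also called a smaller share of all genes higher.

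The anchoring genes of the upper tip link end held the largest difference of the set. *Ush1c* (chr7:53450720-53493873, minus strand), encoding the scaffold protein harmonin, had 875 and 1036 CPM in GFP+ cells against 24.5 and 51.7 CPM in GFP- cells, which is 26.8-fold higher (log2 4.75, SE 0.37, adjusted p = 0.000175). Both GFP- libraries lay far below the GFP+ values. *Myo7a* (chr7:105199570-105268034, minus strand), the motor of the complex, had 61.9 and 81.8 against 24.5 and 21.1 CPM (log2 1.76, SE 0.15). *Ush1g* (chr11:115176506-115183355, minus strand), the adaptor SANS, rested on 56 and 23 counts in GFP+ and 19 and 25 counts in GFP- libraries, or 1.22 and 0.924 against 0.501 and 0.396 CPM. These groups did not overlap, but *Ush1g* missed the threshold (log2 1.4, 95% interval 0.49 to 2.30, adjusted p = 0.0213). Without P1 GFP- replicate 1, which left a lone library in the group, its log2 difference was 1.54.

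At P6 the same comparison gave 6 members higher and 0 lower in GFP+ cells by edgeR, against 7.72% higher and 5.19% lower among the 18294 genes tested. At an unadjusted p below 0.05 there was 1 member lower, *Tmie*, and by DESeq2 0. Among all 18294 genes 4393 and 2568 were lower by these measures. The members' median log2 fold change was 1.74, beside -0.02 over all genes, and 4 of the 6 (*Ush1c*, *Lhfpl5*, *Pcdh15* and *Tmc1*) met the 4-fold criterion, which 4.88% of genes met in this direction. These calls rested on both P6 GFP- libraries. Leaving out P6 GFP- replicate 1 or replicate 2 left a lone library in that group and lost calls of members. The share of all genes called higher fell as well, and the log2 fold changes of the 6 members stayed between 1.64 and 4.59.

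*Tmc1*, whose values interleaved at P1, had 19.9 and 14.0 CPM in P6 GFP+ cells against 2.43 and 2.92 CPM in P6 GFP- cells, with no overlap, and was 6.31-fold higher (log2 2.66, SE 0.29, adjusted p = 0.00301). *Tmc2* rested on few counts at this age, with 8 and 28 counts in GFP+ and 14 and 18 counts in GFP- libraries. Its 0.450 and 0.937 CPM against 0.227 and 0.266 CPM did not overlap but missed the threshold (log2 1.52, 95% interval 0.25 to 2.78, adjusted p = 0.0693). *Lhfpl5* was at 12 and 8.44 CPM in GFP+ and 0.470 and 0.620 CPM in GFP- cells, or 18.5-fold higher (log2 4.21, SE 0.36). *Cib2* was at 46.4 and 30.0 against 11.7 and 10.2 CPM (log2 1.80, SE 0.27), again with no overlap. *Tmie* ran the other way in these libraries, with 8.33 and 8.77 CPM in GFP+ and 12.2 and 12.5 CPM in GFP- cells, and the log2 difference of -0.54 was not past the threshold (95% interval -1.04 to -0.03, adjusted p = 0.0944).

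*Pcdh15* and *Cdh23* were both higher in GFP+ cells at P6. *Pcdh15* had 36.6 and 56.4 CPM in GFP+ and 3.83 and 4.12 CPM in GFP- cells, or 11.6-fold higher (log2 3.54, SE 0.26). *Cdh23* had 19.0 and 25.8 against 6.53 and 7.46 CPM, or 3.18-fold higher (log2 1.67, SE 0.23, adjusted p = 0.00554). In GFP- cells *Cdh23* thus exceeded *Pcdh15* per length, by 2.21 and 2.34 times, while in GFP+ cells the ratio of *Cdh23* to *Pcdh15* per length was 0.672 and 0.593.

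*Ush1c* stayed at 1019 and 997 CPM in P6 GFP+ cells and at 41.1 and 53.6 CPM in P6 GFP- cells, a 21.2-fold difference (log2 4.41, SE 0.25, adjusted p = 0.000732). *Myo7a* had 17.1 and 23.5 against 9.32 and 12.5 CPM, which did not overlap but missed the threshold (log2 0.89, SE 0.25, adjusted p = 0.041). Without P6 GFP+ replicate 1, which left a lone library in the group, the log2 difference of *Myo7a* was 1.13. *Ush1g* rested on 11 to 15 counts a library and was not called either (log2 1.5, SE 0.46, adjusted p = 0.0538).

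**Figure D2:**
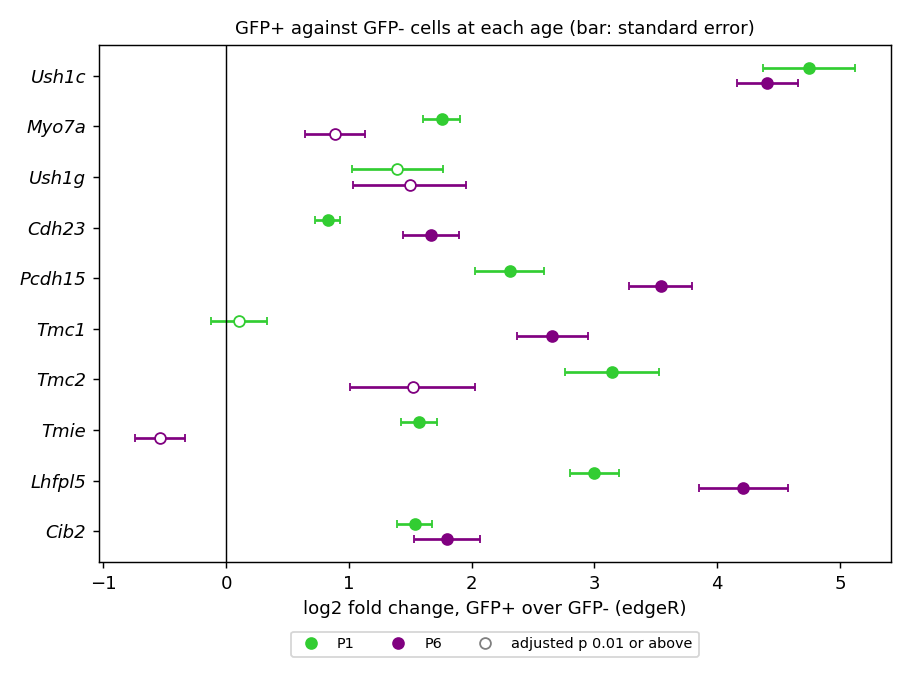
Log2 fold change of GFP+ over GFP- cells for each member at P1 (green) and P6 (purple), with bars for 1 standard error; open points did not pass an adjusted p of 0.01. All P1 points lie at or above 0, from 0.10 (*Tmc1*) to 4.75 (*Ush1c*), and at P6 only *Tmie* lies below 0.

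The next comparison asked how the members differed between P6 and P1 within GFP+ cells. These comparisons use the same libraries as those above, so their values are set side by side and not counted as separate support. *Tmc2*, *Tmie* and *Myo7a* were lower at P6, which is 3 of 10 against 1.95% of the 17213 genes tested. *Tmc2* went from 7.48 and 11.5 to 0.450 and 0.937 CPM, 12.3-fold lower (log2 -3.62, SE 0.43, adjusted p = 0.00809). *Tmie* went from 33.0 and 37.4 to 8.33 and 8.77 CPM (log2 -1.95, SE 0.16, adjusted p = 0.00337), and *Myo7a* from 61.9 and 81.8 to 17.1 and 23.5 CPM (log2 -1.73, SE 0.21, adjusted p = 0.00823). In none of the 3 did the ages overlap, and *Tmc2* alone exceeded a fold change of 4, as 0.93% of genes did in this direction. All 3 calls were lost without P1 GFP+ replicate 2, with log2 differences of -3.33, -1.88 and -1.55. That fit left a lone library in the group and also called a smaller share of all genes lower.

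By edgeR 0 members were higher at P6 in GFP+ cells, against 2.86% of all genes, and 1 was higher at an unadjusted p below 0.05 and 1 by DESeq2. Both were *Tmc1*, which went from 5.0 and 4.82 to 19.9 and 14.0 CPM (log2 1.88, 95% interval 1.22 to 2.54, adjusted p = 0.0115 by edgeR and 1.1e-07 by DESeq2). *Cdh23* likewise had no overlap, at 45.4 and 47.2 CPM at P1 and 19.0 and 25.8 CPM at P6 (log2 -0.96, SE 0.17). It missed the threshold by edgeR (adjusted p = 0.0222) and passed it by DESeq2 (adjusted p = 0.000378). Lower at P6 were 5 members at an unadjusted p below 0.05 by edgeR and 4 by DESeq2. Among all 17213 genes 2937 and 1133 were lower by these measures. *Ush1c*, *Pcdh15* and *Cib2* had overlapping replicates, with log2 differences of 0.17 (95% interval -0.24 to 0.58), 0.23 (-0.35 to 0.82) and -0.28 (-0.92 to 0.36). Leaving out P6 GFP+ replicate 1 brought the calls to 6 lower and 2 higher, where 14.5% and 20.8% of all genes were called in these directions, and leaving out replicate 2 brought them to 4 lower and 1 higher, where 20.7% and 22.5% were. Markers of other cell types moved in the same comparison. By edgeR 0 of 6 Schwann cell, 0 of 6 mesenchymal, 0 of 4 endothelial, 1 of 5 macrophage, 1 of 3 melanocyte and 1 of 7 neuronal markers tested were called higher at P6, and at an unadjusted p below 0.05 6, 5, 4, 5, 3 and 4 were, while DESeq2 called 6, 3, 4, 3, 3 and 2. Over all 17213 genes tested 3638 were higher at an unadjusted p below 0.05 and 1904 by DESeq2. The Schwann cell markers had a median log2 difference of 3.54. They summed to 156 and 80.9 CPM at P1 against 845 and 2236 CPM at P6. The part of these markers in the members' age differences was not tested.

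In GFP- cells *Cdh23* and *Lhfpl5* were lower at P6, 2 of 10 against 2.34% of the 18920 genes tested. *Cdh23* went from 26.1 and 30.0 to 6.53 and 7.46 CPM, 3.51-fold lower (log2 -1.81, SE 0.16, adjusted p = 0.000866). *Lhfpl5* went from 2.19 and 2.54 to 0.470 and 0.620 CPM (log2 -1.92, SE 0.33, adjusted p = 0.00913). Neither gene exceeded a fold change of 4, as 0.418% of genes did in this direction. At an unadjusted p below 0.05 by edgeR 7 members were lower, and 3 were by DESeq2. Among all 18920 genes 3035 and 1194 were lower by these measures. DESeq2 also called *Myo7a* (adjusted p = 0.000372), which missed the threshold by edgeR (log2 -0.87, SE 0.18, adjusted p = 0.0186). By edgeR 0 members were higher, against 5.04% of all genes, with 0 at an unadjusted p below 0.05 and 0 by DESeq2. Among all 18920 genes 3487 and 1849 were higher by the last 2 measures. *Tmie* was level, at 11.2 and 14.1 CPM at P1 and 12.2 and 12.5 CPM at P6, within overlapping replicates and with a log2 difference of 0.15 (95% interval -0.26 to 0.57) that turned to -0.04 with library totals, which moved the median gene by -0.19. Without P6 GFP- replicate 1 neither *Cdh23* nor *Lhfpl5* was called, and without P6 GFP- replicate 2 *Lhfpl5* was lost. Both fits left a lone library in the group and also called a smaller share of all genes lower. Fits without P1 GFP- replicate 1 or replicate 2 left a lone library in the P1 group and called a larger share of all genes lower. Without replicate 2 the log2 difference of *Ush1c* was 1.12, against 0.50 in the full fit.

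**Figure D3:**
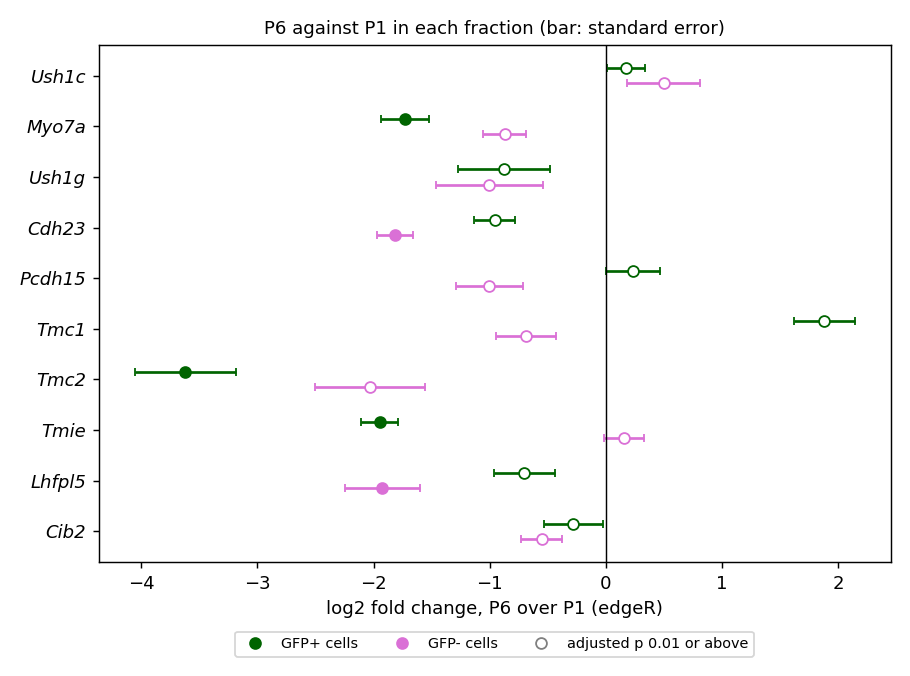
Log2 fold change of P6 over P1 for each member in GFP+ cells (dark green) and GFP- cells (light purple), with bars for 1 standard error; open points did not pass an adjusted p of 0.01. *Tmc1* lies at 1.88 in GFP+ and -0.69 in GFP- cells, and *Tmie* at -1.95 and 0.15.

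Whether the GFP+ to GFP- ratio differed between the ages was tested as an interaction over all 8 libraries, in which 1 member was higher and 1 lower, against 0.946% and 0.988% of the 19233 genes tested. The ratio of *Tmc1* was higher at P6 than at P1 (log2 2.54, SE 0.37, adjusted p = 0.00745 by edgeR), and that of *Tmie* was lower (log2 -2.13, SE 0.23, adjusted p = 0.00288). For the other 8 members the interaction missed the threshold, with log2 values from -1.62 for *Tmc2* (95% interval -3.13 to -0.11) to 1.22 for *Pcdh15* (0.28 to 2.15). The *Tmc1* interaction kept its call without either P6 GFP+ library and was lost without any of the other 6 (log2 from 2.38 to 2.81). The *Tmie* interaction was lost without either P1 GFP+ or either P6 GFP- library (log2 from -2.20 to -2.03). Each of these fits left a lone library in a group. Where a call was lost, a smaller share of all genes was also called in the same direction.

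The relation of *Tmc1* to *Tmc2*, compared per length, had a different order in P1 GFP+ cells than in the other groups. In P1 GFP+ cells *Tmc1* stood at 0.477 and 0.299 of the *Tmc2* level, so *Tmc2* was the more abundant in both libraries. In P1 GFP- cells *Tmc1* was 2.61 and 3.77 times the *Tmc2* level. At P6 it was 31.6 and 10.7 times the *Tmc2* level in GFP+ cells and 7.66 and 7.86 times in GFP- cells. P1 GFP+ was thus the only group of the 4 in which *Tmc2* exceeded *Tmc1*. The 2 high ratios at P6 differ mostly through *Tmc2*, whose 8 counts in P6 GFP+ replicate 1 give 0.450 CPM with an exact binomial 95% interval from 0.194 to 0.887 CPM, for counting error only.

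**Figure D4:**
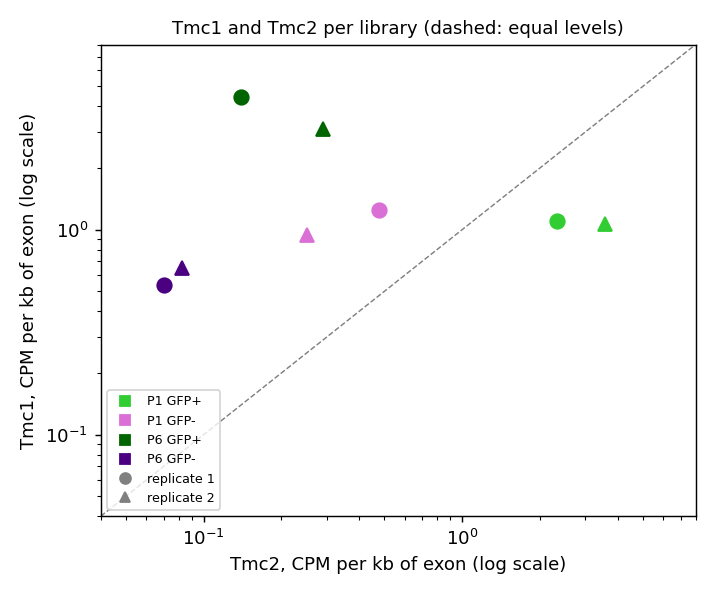
*Tmc1* against *Tmc2* in CPM per kilobase of exon, both on log axes, for the 8 libraries; the dashed line marks equal levels. The 2 P1 GFP+ libraries lie below the line and the other 6 above it.

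12 other genes of bundle links and transduction were followed beside the members, of which 11 were tested. At P1 7 of the 11 were higher in GFP+ cells and 1 was lower, and their median log2 fold change was 1.59. Those higher included *Loxhd1* (log2 3.37, SE 0.21), encoding a stereociliary protein, *Ptprq* (3.02, SE 0.12), the shaft connector phosphatase, and *Tomt* (2.42, SE 0.32), which is needed to bring the TMC proteins to the bundle. The exons of *Tomt* share 69.4% of their bases with an opposite-strand gene, so its counts are uncertain. *Myo1c*, an unconventional myosin found in many cell types, was lower in GFP+ cells (22.0 against 69.2 CPM on average, log2 -1.55, SE 0.09). At P6 5 were higher and 0 lower by edgeR, with 2 lower at an unadjusted p below 0.05 and 2 by DESeq2, and *Loxhd1* (log2 4.51, SE 0.33) led again. In GFP+ cells *Adgrv1* (log2 -2.10, SE 0.21), encoding a receptor of the ankle link, was among those lower at P6, and in GFP- cells *Loxhd1* and *Adgrv1* were among those lower (-2.21 and -1.44). *Cib3*, a relative of *Cib2*, had 0 to 4 counts a library and was not tested. Of its libraries 2 had 0 counts, where a count of 0 allows up to 0.169 CPM in P6 GFP+ replicate 1 and 0.0486 CPM in P6 GFP- replicate 1.

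Most of the 17 hair cell markers were on the same side as most members. Of them 13 were higher in GFP+ cells at P1 (median log2 3.21 over the 17) and 14 at P6 (median 4.26), with 0 lower at either age by edgeR, 0 at an unadjusted p below 0.05 and 0 by DESeq2. At P1 the largest differences were in *Atoh1* (log2 4.61, SE 0.26), the transcription factor that starts hair cell differentiation, *Rbm24* (4.02, SE 0.18), an RNA-binding protein, *Pou4f3* (3.61, SE 0.27), a hair cell survival factor, and *Barhl1* (3.46, SE 0.27), a homeobox factor. At P6 they were in *Atoh1* (6.48, SE 0.79), *Ocm* (5.36, SE 0.56), the outer hair cell calcium buffer, *Chrna10* (4.64, SE 0.29) and *Grxcr1* (4.64, SE 0.45). *Atoh1* had 1 and 0 counts in the P6 GFP- libraries and 15 and 31 in the P6 GFP+ libraries, so its fitted value is imprecise and depends on the prior count. *Myo6*, *Slc17a8* and *Pvalb* were called at neither age, and *Myo6*, the most abundant marker, averaged 459 against 377 CPM at P1 and 288 against 326 CPM at P6. *Pvalb* averaged 16.4 in GFP+ against 29.9 CPM in GFP- cells at P1 (log2 -0.77, SE 0.45) and 18.6 against 10.6 CPM at P6. Within GFP+ cells *Ocm* (log2 7.04, SE 0.64), *Slc26a5* (4.32, SE 0.34), encoding the outer hair cell motor prestin, and *Rbm24* (1.38, SE 0.12) were higher at P6, while *Atoh1* (-3.07, SE 0.29) and *Barhl1* (-2.21, SE 0.26) were lower. In GFP- cells *Ocm* (4.20, SE 0.50) and *Rbm24* (3.53, SE 0.20) were higher at P6 and *Grxcr1* (-2.96, SE 0.46) was lower.

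Marker sums differed between the fractions for every cell type at P1. The hair cell markers summed to 793 and 926 CPM in P1 GFP+ and 468 and 441 CPM in P1 GFP- cells. At P6 they summed to 716 and 724 against 381 and 413 CPM. *Myo6*, called at neither age, supplied 442 and 476 CPM of these sums in P1 GFP+ and 406 and 348 CPM in P1 GFP- cells. At P6 it supplied 250 and 325 against 312 and 340 CPM, so the ratios of the sums depend much on this gene. The 8 supporting cell markers summed to 7092 and 7676 against 566 and 574 CPM at P1 and to 6880 and 5032 against 479 and 475 CPM at P6, and 7 of the 8 were higher in GFP+ cells at each age, with the other 1 lower at P1. The 6 mesenchymal markers summed to 318 and 280 CPM in P1 GFP+ cells and to 760 and 2652 CPM in P6 GFP+ cells, against 15167 and 13179 and 17389 and 16903 CPM in the GFP- libraries. All 6 were lower in GFP+ cells at P1, as were 6 of 7 neuronal, 5 of 6 Schwann cell, 4 of 5 macrophage, 5 of 5 melanocyte and 4 of 4 endothelial markers. At P6 2 mesenchymal, 4 macrophage and 3 melanocyte markers were lower, and 0 neuronal, 0 Schwann cell and 0 endothelial markers were called lower by edgeR, with 4, 1 and 0 lower at an unadjusted p below 0.05 and 0 each by DESeq2.

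The 2 P6 GFP+ libraries differed in these other markers. Replicate 2 had 2652 against 760 CPM of mesenchymal, 2236 against 845 CPM of Schwann cell and 169 against 40.2 CPM of endothelial markers, and 5032 against 6880 CPM of supporting cell markers. Between the same libraries *Tmc2* differed by 1.06, *Pcdh15* by 0.62, *Cib2* by -0.63 and *Ush1c* by -0.03 on the log2 scale (replicate 2 over replicate 1). The hair cell marker sum was 724 against 716 CPM. Its genes moved both ways, with *Myo6* at 325 against 250 CPM and *Ocm* at 34.4 against 86.2 CPM. Without P6 GFP+ replicate 2 the fraction comparison at P6 had 6 members and 15 hair cell markers higher in GFP+ cells, where 17.9% of all genes were higher.

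**Figure D5:**
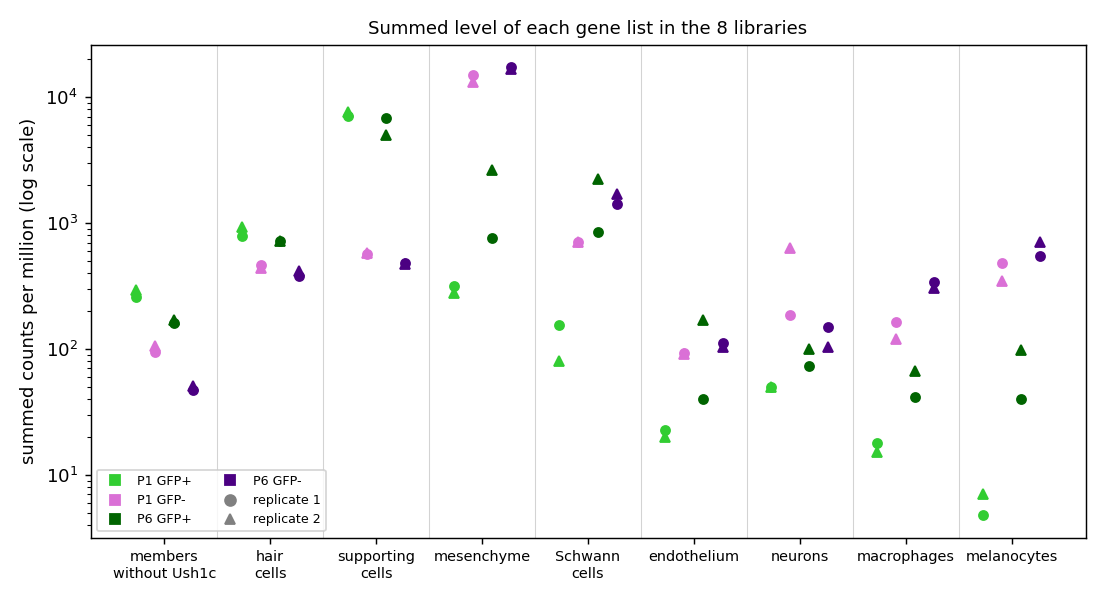
Summed CPM (log axis) of the 9 members other than *Ush1c* and of each cell type's markers in the 8 libraries; circles and triangles are replicates 1 and 2. The sums of members and of hair cell markers are higher in the GFP+ libraries at both ages, and the hair cell sum includes the abundant *Myo6*. The mesenchymal sum of P6 GFP+ replicate 2 (2652 CPM) exceeds that of replicate 1 (760 CPM).

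Likeness between patterns was measured as Pearson's r of log2(CPM + 0.5) over the 8 libraries, which share cells, depth and the GFP+ to GFP- split between all genes, so it is given as a description. Among the members *Lhfpl5* and *Cib2* were most alike (r = 0.988), followed by *Tmc2* and *Myo7a* (0.982), and *Pcdh15* was most like *Lhfpl5* (0.951). *Ush1c* was most like *Pcdh15* (0.941), *Ush1g* most like *Lhfpl5* (0.912), *Cdh23* most like *Myo7a* (0.899) and *Tmie* most like *Tmc2* (0.889). *Tmc1* stood apart, as its most alike member was *Pcdh15* with r = 0.710 and its least alike was *Tmie* with r = -0.41. Among 15468 genes with a mean of at least 1 CPM, those closest to the members' mean standardized profile were *Cbr4* (0.997), *Lmln* (0.997), *Hook1* (0.996), *Fsd1l* (0.996) and *Kazn* (0.996). This measure takes no account of the size of a difference. *Cbr4* averaged 16.8 in GFP+ against 12.1 CPM in GFP- cells at P1 and 14.2 against 10.4 CPM at P6. *Kazn* averaged 232 against 75.2 CPM and 112.5 against 41.8 CPM.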

How the data were processed

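RNA-seq data of 8 libraries were analysed, 2 for each of P1 GFP+, P1 GFP-, P6 GFP+ and P6 GFP- cells, grouped by the titles of the samples. Each file deposited by the authors holds unnormalized read counts of Ensembl genes. The authors aligned paired-end reads to mm9 (NCBIM37) with TopHat, and the submitters' processing notes name TopHat 1.4.0, HTSeq and DESeq 1.9.2. The counting mode and strand setting were not given in the sources used here. Reads on no gene, on several genes or at several places, which are listed apart, left 64.7% to 76.2% of listed reads on genes and were not used.

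Comparisons were fitted with edgeR 4.0.16 in R 4.3.3, each fraction or age comparison on its 4 libraries and the interaction on all 8, with filterByExpr (minimum count 10, minimum total count 15), TMM and the quasi-likelihood test. Genes were called at a Benjamini-Hochberg adjusted p below 0.01 over all genes tested. The SE is the log2 fold change divided by the square root of F, and 95% intervals use the degrees of freedom of the test. DESeq2 1.42.0 was an alternative, as were other scalings, no filter, a replicate block and leaving out each library. Fits were tested on simulated data with 200 changed genes. Named genes were all members, at most 4 called genes per companion list, comparison and direction, *Lfng* and the 5 genes most like the members, and other genes named with their values (*Cib3*, *Myo6*, *Slc17a8*, *Pvalb* and genes that overlap members) were chosen after their values were seen. One gene that the rule names is not reported here. The members and lists were chosen with earlier results of these data known. Figures were drawn with matplotlib 3.10.9 in Python 3.11.15.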

Additional observations from a re-analysis of the deposited data

Results flagged for a closer look

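The 2 members below had GFP+ to GFP- ratios that differed between the ages by the interaction test over all 8 libraries. *Tmc1* had a higher ratio at P6 (log2 difference 2.54, adjusted p = 0.00745 by edgeR), with no overlap of the fractions at P6 and interleaved values at P1. *Tmie* had a lower ratio at P6 (log2 difference -2.13, adjusted p = 0.00288 by edgeR), and in both replicates GFP+ was above GFP- cells at P1 and below them at P6.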

How the results depend on the processing

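Across the alternatives other than leaving out a library, 289 of the members' log2 fold changes kept their direction and side of the threshold, 17 passed it newly, 2 no longer passed and 2 reversed, namely *Tmc1* at P1 (-0.00040) and *Tmie* in GFP- cells (-0.037), both with library totals. With the study's 4-fold criterion 4 members were higher at P1, and 1 and 0 were lower at P6 in GFP+ and GFP- cells. In GFP+ cells 1 member, *Tmc1*, was higher at P6 by the DESeq2 test, with no filter, with all 8 libraries, and with the replicate block and the crossed replicate block. Of all genes 11.1%, 9.37%, 8.02%, 4.04% and 4.73% were higher in these fits, in the same order. With no filter the GFP- age comparison had 1 higher and 5 lower, and the interaction 2 higher. Of all genes 8.70% and 6.07% were called in these directions in the GFP- comparison and 5.83% in the interaction. The replicate numbers do not pair the samples, since replicate differences correlated at -0.31 to 0.11 between groups. The replicate block left 1 member lower in GFP- cells and 0 higher in the interaction, where *Tmc1* was no longer called (log2 2.51, adjusted p = 0.0163 by edgeR), and every other count of members called stayed within 1.5 times. With this block 1.58% of all genes were lower in GFP- cells and 0.385% higher in the interaction. The crossed replicate block, added after seeing the data because the age groups correlated at -0.12 in GFP+ and -0.31 in GFP- cells, gave 1 higher and 3 lower in GFP+ and 0 higher and 4 lower in GFP- cells. Without *Ush1c*, a choice made after seeing the data, the log2 ratio of summed levels was 1.48 (P1), 1.75 (P6), -0.76 (GFP+, P6 against P1) and -1.03 (GFP-), against 3.17, 3.61, -0.07 and -0.51 with it.

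Leaving out each library gave 7 to 9 members higher at P1, 0 to 7 higher at P6, 0 to 2 higher and 0 to 6 lower at P6 in GFP+ cells, 0 to 1 higher and 0 to 5 lower in GFP- cells, and 0 to 1 in each direction of the interaction. A lone library is then assumed to vary like the other group, and the share of all genes called differed widely between these fits. In the fraction comparison at P6 the lowest count of members came from the fit without P6 GFP- replicate 2. That fit called no gene at all in either direction, so its count says nothing specific to the members. Reversed values, none of them called in the full fit, ranged over the left-out libraries from -0.092 to 0.29 for *Tmc1* at P1, from -0.081 to 0.48 for *Pcdh15* and -0.65 to 0.037 for *Cib2* in GFP+ cells, from -0.013 to 0.32 for *Tmie* in GFP- cells, and in the interaction from -0.14 to 0.55 for *Cib2*, -0.90 to 0.13 for *Ush1c* and -0.079 to 0.35 for *Ush1g*. With 2 libraries a group and 8 to 56 counts a library for *Ush1g* and for *Tmc2* at P6, differences of these genes are known with little precision.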
